A study of Mus musculus with 10 samples.

Results

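The 4 Hox clusters of the mouse and the DNA beside them held 66 of the 10348 peaks that were listed for Six2 and β-catenin in nephron progenitors, which is 0.638% of all peaks. The members were chosen by position, as all peaks overlapping a window around each cluster in the mm9 build. These were chr6:51950000-52350000 for Hoxa, chr11:96000000-96350000 for Hoxb, chr15:102650000-103000000 for Hoxc and chr2:74300000-74750000 for Hoxd. The windows were picked with earlier results of these lists known, so counts and ranks of peaks inside them are given as a description and without a test.

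Peaks came from chromatin immunoprecipitation followed by sequencing (ChIP-seq) of cells sorted for a Six2GFPcre BAC transgene, in which Six2 control sequence drives a GFP-Cre fusion, from kidneys at E16.5 on a mixed background. Both groups were positive for the transgene. Six2 was precipitated from fresh cells (2 libraries). β-catenin was precipitated from pelleted cells kept for 24 h in serum-containing medium with 4 µM BIO, which inhibits GSK3 (2 libraries). Antibody and culture changed together, so their parts in any difference between the maps cannot be told apart. The 4 input and 2 rabbit IgG samples were not analysed here, and sites that give signal with any antibody were therefore not separated from binding.

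Hox genes encode homeodomain transcription factors that sit in 4 clusters, in an order that matches where along the body axis they are expressed. In the kidney, the paralogues Hoxa11, Hoxc11 and Hoxd11 act together in the metanephric mesenchyme and are needed there for Six2 expression, while Hoxb7 is active in the ureteric bud and its promoter drives bud transgenes. Hoxb9 is one of the posterior genes of the Hoxb cluster. Six2 is a homeodomain factor that maintains nephron progenitors, and β-catenin is the co-activator of canonical Wnt signalling, which binds DNA through TCF/LEF factors.

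Sequence under the peaks is not printed, because no mm9 sequence was used here. What could be read was the promoter of Hox genes in RefSeq (GRCm38.p6, 250 bases before to 50 after each start), where 24 promoters of 22 of the 39 Hox genes were matched. A peak cannot be placed on these promoters, since the builds differ. Motifs were searched on both strands, with CTTTGAT and CTTTGTT for TCF/LEF and TCAGGTTTC, the MEF3 site, for Six2 and its relatives. Only Hoxd8 held CTTTGAT, in a pair of matches that do not overlap and begin 153 and 143 bases before the start. The Hoxd8 promoter is chr2:74704365-74704664 (+ strand). Hoxd4 alone held CTTTGTT, beginning at base 16 of the transcript, in chr2:74721728-74722027 (+ strand). Both matches are shown because no other Hox promoter searched had one, with the motif in capitals.
Hoxd8: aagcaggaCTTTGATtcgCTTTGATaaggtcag
Hoxd4: ccaataaaCTTTGTTttatggct
Among all 32851 promoters of this length, 3.73% held CTTTGAT, 5.85% held CTTTGTT and 0.429% held TCAGGTTTC, and 1, 1 and 0 of the 24 Hox promoters did. The promoter of Hoxa11 and both promoters of Hoxd11 held none of the 3 motifs. Hoxb7, Hoxb9 and Hoxc11 were not among the promoters matched. A match is a run of letters and not a binding site, and its absence says nothing about the factors.

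Six2 replicate 1 contributed 30 of the 66 peaks, Six2 replicate 2 had 10, β-catenin replicate 1 had 15 and β-catenin replicate 2 had 11. In the same order, the whole lists held 5645, 1622, 1873 and 1208 peaks, and the counts are not scaled by these lengths. The Hoxb window held the most, 25, against 15 in the Hoxc window, 14 in the Hoxa window and 12 in the Hoxd window. Peaks that shared at least 1 bp were merged into 41 regions, of which 15 (36.6%) had peaks of at least 2 libraries, beside 26.7% of the 7666 merged regions of the whole series. Both antibodies met in 11 of the 41 regions (26.8%, 95% exact interval 14.2 to 42.9%), beside 9.99% of all regions. Both Six2 libraries met in 9 regions (22.0%, beside 17.6%), both β-catenin libraries in 5 (12.2%, beside 7.24%) and all 4 libraries in 2 (4.88%, beside 1.64%). Intervals here are Clopper-Pearson, ignore any dependence between neighbouring peaks and reflect counting error alone. Without Six2 replicate 1, the longest list, 36 peaks in 24 regions were left and 7 regions held both antibodies. Without β-catenin replicate 1, 6 regions held both.

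**Figure D1:**
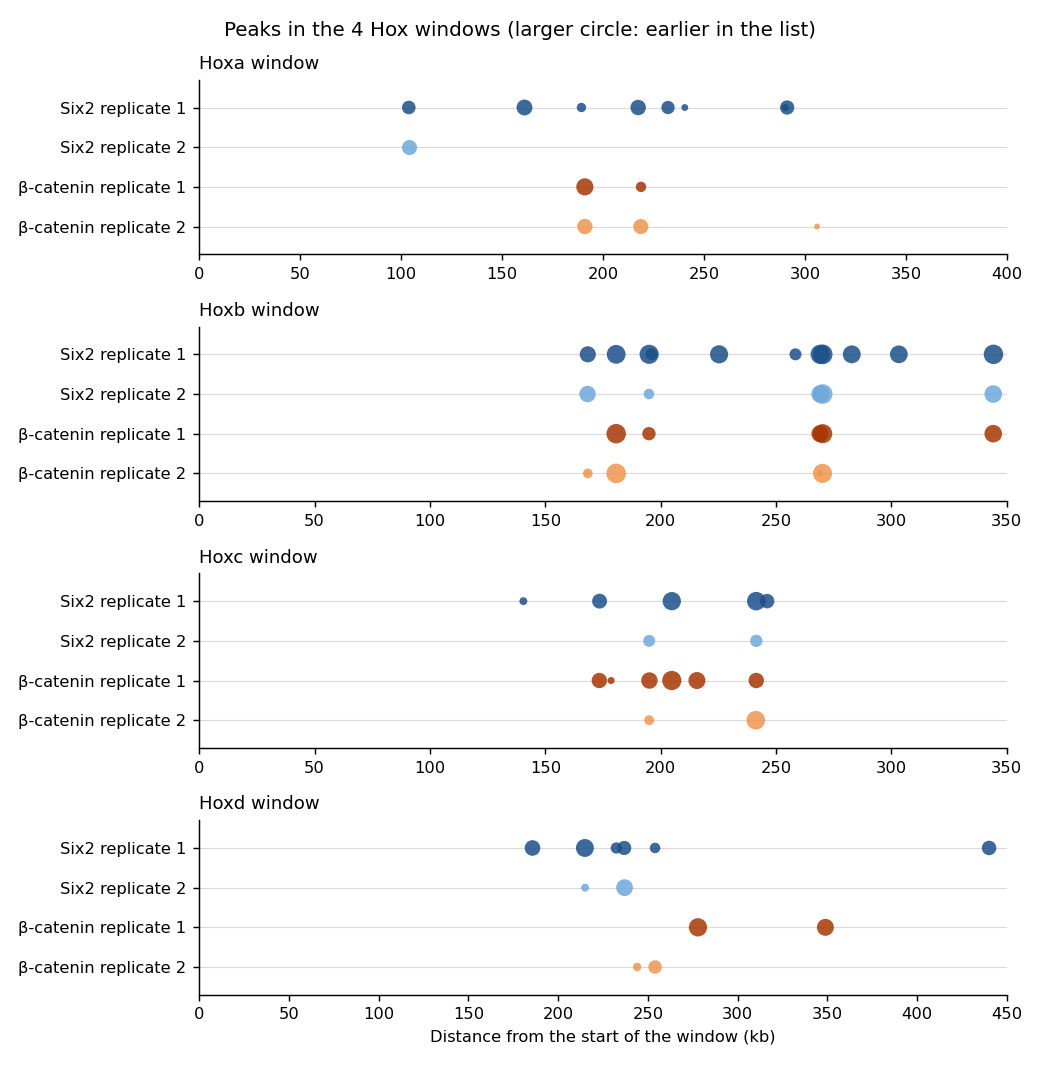
Each circle is 1 peak, plotted by its distance from the start of the window in kb (x axis) and by library (rows), and larger circles stand nearer the top of their list. The Hoxb window has peaks of several libraries stacked at 6 positions. In the Hoxa window, with 9 Six2 and 5 β-catenin peaks, no position carries peaks of both antibodies.

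Peaks on the other antibody were counted in each window, with few peaks per window and no comparison between windows. In the Hoxb window all 9 β-catenin peaks lay on a Six2 peak (lower bound of the 95% exact interval 66.4%), and 11 of 16 Six2 peaks lay on a β-catenin peak. In the Hoxc window 5 of 8 β-catenin peaks and 5 of 7 Six2 peaks did so. The Hoxd window had 1 of 4 and 1 of 8, and the Hoxa window 0 of 5 and 0 of 9, where the upper bounds were 52.2% and 33.6%. Over the windows together, 10 of 30 peaks of Six2 replicate 1 (33.3%) lay on β-catenin peaks, beside 12.9% of its whole list, and 7 of 10 of replicate 2 (70.0%), beside 23.6%. For β-catenin these shares were 9 of 15 (60.0%, beside 36.6%) in replicate 1 and 6 of 11 (54.5%, beside 27.9%) in replicate 2. The Hoxd shares, 12.5% for Six2 and 25.0% for β-catenin, were near or below these whole-list values. For the Hoxa window, the upper bounds of 33.6% for Six2 and 52.2% for β-catenin lay above the whole-list values of each antibody. The Six2 libraries share regions, so their shares are not independent, and with windows picked on these lists the differences were not tested.

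Recovery by the other library of the same antibody stood closer to that of the whole lists. It was 9 of 30 for Six2 replicate 1 (30.0%, beside 24.0%) and 9 of 10 for Six2 replicate 2 (90.0%, beside 83.1%). It was 5 of 15 for β-catenin replicate 1 (33.3%, beside 29.5%) and 5 of 11 for β-catenin replicate 2 (45.5%, beside 45.6%).

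**Figure D2:**
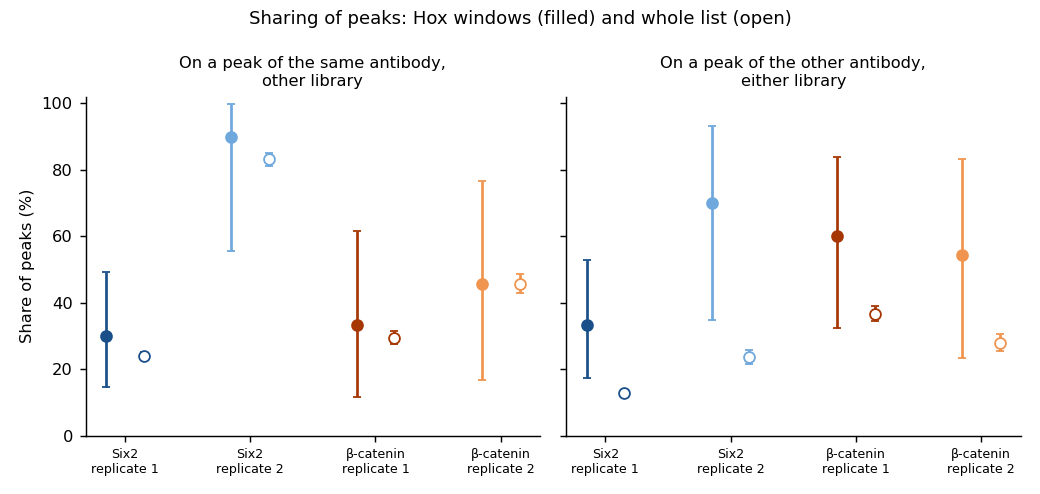
Share of peaks in % (y axis) that overlap a peak of the other library of the same antibody (left) or of either library of the other antibody (right), for the peaks in the Hox windows (filled) and for the whole list (open) of each library, with 95% exact intervals. On the left the window values range from 30.0 to 90.0% and the whole-list values from 24.0 to 83.1%, and on the right the window values range from 33.3 to 70.0% and the whole-list values from 12.9 to 36.6%.

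The Hoxb window was led by a region near the top of both Six2 lists. Row number in the deposited list is used as the rank of a peak, with 1 at the top. The lists differ in length, so the same rank is a different share of each list. At chr11:96270032-96270285 the rank was 3 in each Six2 library, 97 in β-catenin replicate 1 and 63 in β-catenin replicate 2. These ranks fall within the first 0.185% of both Six2 lists and the first 5.22% of both β-catenin lists. The peaks had 90 bp in common, chr11:96270140-96270229, and their midpoints lay within 63.5 bp of each other.

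A second region with all 4 libraries lay 830 bp before it, at chr11:96268940-96269201. Its ranks were 244 and 313 for Six2 and 501 and 1161 for β-catenin replicates 1 and 2. The last of these is near the bottom of its list (96.1%), while the Six2 peaks stood at 4.32 and 19.3%. Among the 126 regions of the series with all 4 libraries, only 2 pairs of neighbours were within 2 kb of each other, this pair and another 782 bp apart on chromosome 7. Hoxb13 and then Ttll6 are at the low-coordinate end of the cluster, and Hoxb1 and then Skap1 at the high end, by gene order in the RefSeq table. As general background, not read from a file here, the Hoxb genes of mm9 lie at lower coordinates than this pair, which puts the pair beside the cluster on the Hoxb1 side. By the same background, the Hoxb regions at higher coordinates than the pair, up to chr11:96343983-96344251, also lie beside the cluster on that side. For the remaining regions of the 4 windows, no position inside or beside a cluster was assigned.

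**Figure D3:**
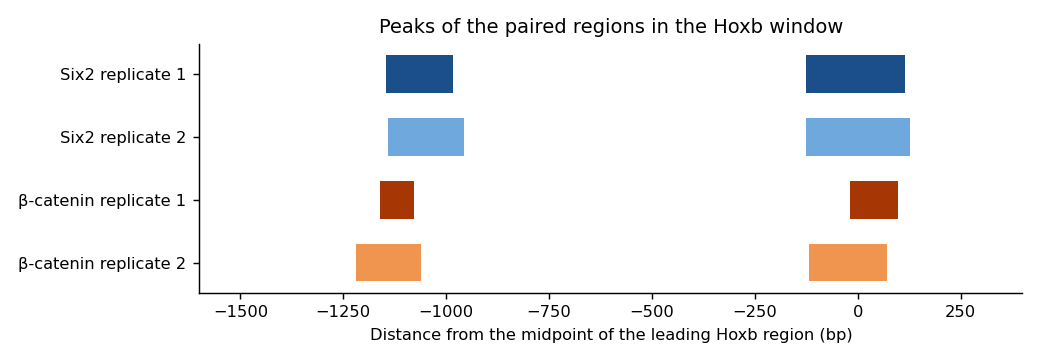
Bars show the extent of each peak in bp from the midpoint of the leading Hoxb region (x axis), 1 row per library. All 4 libraries have a peak at both positions, with a gap of 830 bp between the merged regions.

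The other 4 Hoxb regions with several libraries had 3 each. At chr11:96180626-96180790 β-catenin was near the top of its lists, with rank 26 in replicate 1 and 9 in replicate 2, the lowest β-catenin ranks in any of the windows. Six2 replicate 1 had rank 481 there and replicate 2 no peak. The 3 midpoints were within 10.5 bp.

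The regions on either side of it had both Six2 libraries and 1 β-catenin library. At chr11:96168249-96168446 the Six2 ranks were 1950 and 514, and β-catenin replicate 2 had rank 980. Peaks at chr11:96194821-96195063 ranked 261 and 1236 for Six2 (4.62 and 76.2% of the list lengths) and 1078 for β-catenin replicate 1. The β-catenin peak was 25 bp wide and lay inside the others. The last region, chr11:96343983-96344251, ended 5.7 kb before the end of the window. It ranked 64 and 338 for Six2 and 388 for β-catenin replicate 1, so that among the peaks of these windows it was next after the leading region in the list of Six2 replicate 1. Single-library regions in the Hoxb window numbered 5, were all of Six2 replicate 1 and had ranks from 862, at chr11:96225248-96225413, to 3821. Over the whole series, 3910 of the 5619 single-library regions were of Six2 replicate 1, the longest list. The 6 Hoxb regions with several libraries were still 6 with any 1 library left out. This was fixed in advance, because each of them had 3 or 4 libraries.

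The Hoxc window, around the cluster of Hoxc11, had 4 regions with several libraries, and each held both antibodies. Over the whole series, 766 of the 2047 regions with several libraries did so. Of the 4 Hoxc regions, 2 had 3 libraries and so hold both antibodies of necessity, since each antibody had 2 libraries. The highest placed β-catenin peak of these regions was at chr15:102854688-102854889, where replicate 1 had rank 70 and Six2 replicate 1 had rank 766, with 132 bp in common. Neither replicate 2 library had a peak there. At chr15:102823283-102823515 the same libraries met at ranks 780 and 2560, and the Six2 peak was 39 bp wide.

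A region at chr15:102844878-102845183 was seen by both β-catenin libraries, at ranks 602 and 970, and by Six2 replicate 2 at rank 1094. It carried the single peak of Six2 replicate 2 in the windows that Six2 replicate 1 lacked. At chr15:102891306-102891499 Six2 ranked 641 and 1048 (11.4 and 64.6% of the list lengths) and β-catenin replicate 1 ranked 767. A 47 bp peak of β-catenin replicate 2, rank 131, ended 42 bp before it at chr15:102891217-102891263 and overlapped none of the 3. When gaps of up to 100 bp were joined, a choice made after seeing the data, that region too had all 4 libraries. Of the other single-library regions, 2 were of β-catenin replicate 1 and 2 of Six2 replicate 1, the higher placed of which was at chr15:102896066-102896231 with rank 2746. Regions with several libraries fell from 4 to 2 without Six2 replicate 1, and equally without β-catenin replicate 1.

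In the Hoxd window, around the cluster of Hoxd11, 2 regions were seen by both Six2 libraries and none by both β-catenin libraries. At chr2:74536514-74537037 the Six2 ranks were 2887 and 463 (51.1 and 28.5% of the list lengths). At chr2:74514891-74514986 they were 992 and 1454 (17.6 and 89.6% of the list lengths), and the replicate 2 peak was 42 bp wide. The midpoints of the first pair lay 197.0 bp apart and those of the second pair 23.0 bp apart. The antibodies met once, at chr2:74553878-74554057, where Six2 replicate 1 ranked 4300 and β-catenin replicate 2 ranked 685. The 6 single-library regions were 3 of Six2 replicate 1, led by rank 2215 at chr2:74485604-74485737, 2 of β-catenin replicate 1, led by rank 267 at chr2:74577881-74578002, and 1 of β-catenin replicate 2. None of the 3 shared regions was left without Six2 replicate 1, 1 was left without Six2 replicate 2, and 2 without β-catenin replicate 2. With a reciprocal overlap of 50% 1 was left, and with the first 50% of each list 0.

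In the Hoxa window, around the cluster of Hoxa11, the antibodies did not meet at any region. Both Six2 libraries had a peak at chr6:52053473-52053887, the lowest coordinates of the window's peaks, with ranks 3140 and 714 and midpoints 156.5 bp apart. Both β-catenin libraries had a peak at chr6:52140928-52141121, with ranks 467 and 499. A Six2 replicate 1 peak of rank 4671 ended 1.5 kb before that region. The other 10 regions had 1 library each, 7 of them Six2 replicate 1, from rank 2090 at chr6:52111058-52111240 to rank 5320. β-catenin replicate 2 led its antibody's single-library regions with rank 522 at chr6:52168643-52168676, a peak of 34 bp that lay 77 bp from a 20 bp peak of replicate 1 (rank 1441). Either library of an antibody, when left out, removed that antibody's shared region and left 1. Neither held under a reciprocal overlap of 50%, which left 0.

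In the windows, peaks of single-library regions stood lower in their lists than peaks of regions with all 4 libraries. The whole lists ran the same way for peaks not found by the other library of their antibody. Median rows of found and not found peaks were 1108 and 3322.5 in Six2 replicate 1 and 731.0 and 1147.0 in replicate 2. For β-catenin they were 394 and 1127.5 in replicate 1 and 363 and 769 in replicate 2. Row number as a percentage of list length had a median of 49.5% over the 26 single-library peaks, 42.8% over 14 peaks of regions with 2 libraries, 31.9% over 18 peaks of regions with 3 and 5.2% over 8 peaks of the pair with 4. The groups overlapped, with single-library peaks from 10.8 to 97.7% and the 4-library peaks from 0.0531 to 96.1%. Over all 66 peaks the median was 40.7%, where a whole list has its median at the middle by construction. It was 42.9% in Six2 replicate 1, 37.9% in Six2 replicate 2, 26.7% in β-catenin replicate 1 and 56.7% in β-catenin replicate 2, so that 1 β-catenin library was above and the other below the middle.

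**Figure D4:**
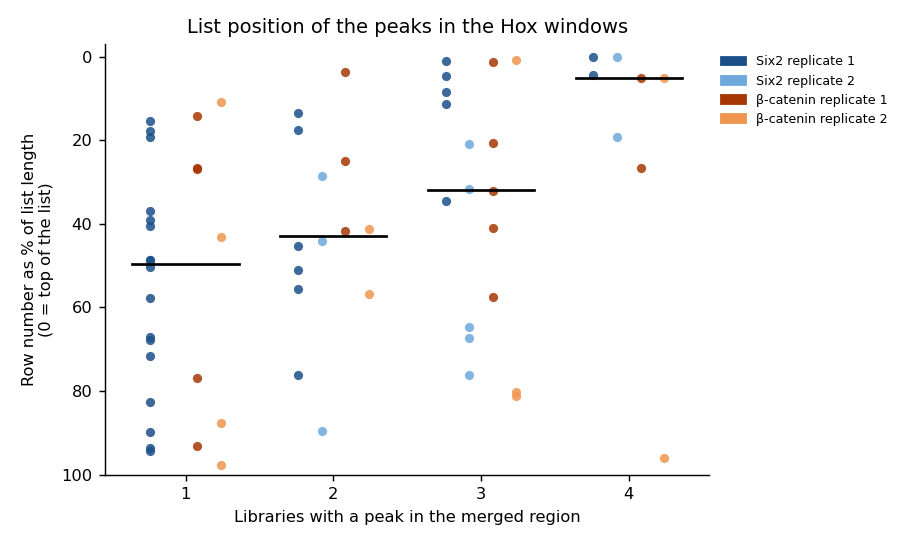
Row number as a percentage of list length (y axis, 0 at the top of the list) for each of the 66 peaks, by the number of libraries in its merged region (x axis), coloured by library, with a line at the median. The medians are 49.5, 42.8, 31.9 and 5.2%, and the ranges overlap.

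Most peaks were narrower than the 250 to 500 bp fragments sequenced. The 66 peaks were 20 to 498 bp wide, with a median of 146.5 bp. The median was 144.0 bp in Six2 replicate 1 (146 bp in its whole list), 188.5 bp in Six2 replicate 2 (207.0), 122 bp in β-catenin replicate 1 (140) and 153 bp in β-catenin replicate 2 (131.0). Peaks under 50 bp numbered 6 of 66 (9.09%). By library this was 1 of 30 (3.33%) and 1 of 10 (10.0%) for Six2 replicates 1 and 2. For β-catenin it was 2 of 15 (13.3%) and 2 of 11 (18.2%), so each share rests on 1 or 2 peaks. In the whole lists peaks under 50 bp made up 2.37 and 0.37% for Six2 replicates 1 and 2, and 5.07 and 3.48% for β-catenin. Of the 6, 2 were the β-catenin peaks in the Hoxa window described above.

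Regions with several libraries were denser in the Hoxb window than in most stretches of equal width. Tiles of 350 kb were laid side by side along every chromosome between its outermost peaks. Of 7225 tiles, 79.8% held no region with at least 2 libraries, and 2 tiles (0.0277%) held 6 or more, as the Hoxb window did. Those 2 tiles were on chromosomes 16 and 17. A tile border crossed the Hoxb window, so that no tile covered it as a whole. Tiles with at least 4 such regions, the count of the Hoxc window, made up 0.651%. For the Hoxd window, 2.39% of 450 kb tiles had 3 or more, and for the Hoxa window 6.46% of 400 kb tiles had 2 or more. The windows were centred on genes after these lists were known, whereas the tiles were not, so these shares describe the lists and are no test.

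**Figure D5:**
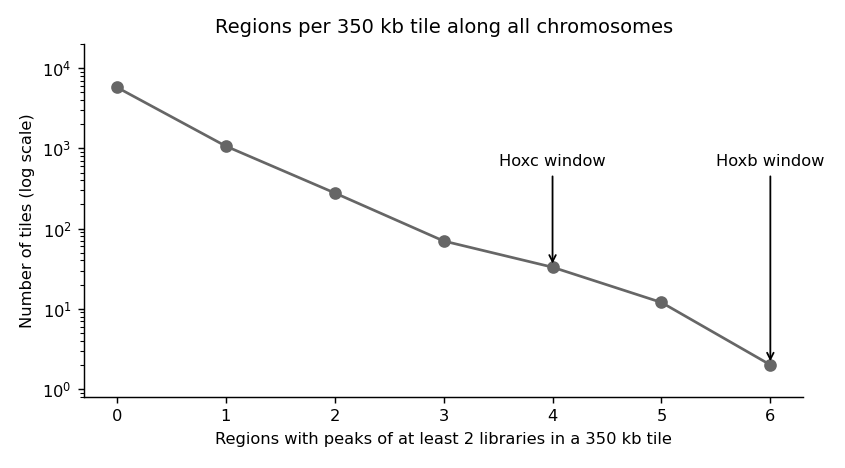
Number of 350 kb tiles (y axis, log scale) by how many regions with peaks of at least 2 libraries they hold (x axis). The Hoxb window, with 6, equals the 2 fullest tiles, and the Hoxc window has 4.

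The window limits were not equally far from the nearest peaks. The last peak inside the Hoxb window (Six2 replicate 1, rank 64) ended 5.7 kb before its upper limit, and the next peak outside (Six2 replicate 1, rank 1944) began 4.7 kb beyond it. A peak of Six2 replicate 1 with rank 2439 ended 0.2 kb below the Hoxd window, and one with rank 2894 began 6.3 kb above it. In the Hoxc window a β-catenin replicate 2 peak of rank 1002 began 3.1 kb above the limit. For the Hoxa window the nearest peak outside was 103.9 kb away.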

How the data were processed

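The authors deposited 1 peak list for each of 4 libraries, with 3 columns (chromosome, start, end) and no other measure such as a score or read count, so depth is unknown. Per the submitters' processing notes the build was mm9 and CASAVA version 1.6 was used. The peak caller and its threshold are unnamed in the sources used here. The labels tie an input sample to each library without stating whether the calls used it. Per the labels, fragments of 250 to 500 bp were amplified with 18 PCR cycles. Replicates were numbered in accession order, and whether they came from separate sorts is not given in the labels.

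Positions were converted to 1-based. Peaks sharing at least 1 bp were merged, with code checked on simulated lists. Row number served as rank: the share found by the other library of an antibody was 76.4 to 98.1% in the first decile of each list and 4.78 to 74.2% in the last. All regions with at least 2 libraries are named, and per window and antibody the single-library region of lowest rank. Windows, members and lists were chosen with earlier results of these data known. Gene order and promoters came from RefSeq tables of GRCm38.p6; no coordinates were converted. Alternatives were other overlap rules, shorter lists, narrower or wider windows and left-out libraries. Python 3.11.15 and scipy 1.17.1 were used.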

Additional observations from a re-analysis of the deposited data

How the results depend on the processing

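Over the alternatives, 38 of 50 values of the 6 main results were within 1.5 times the reported count, or within 1 SD of the library medians for the median list position. With a reciprocal overlap of 50%, regions seen by both Six2 libraries went from 9 to 4 and by both β-catenin libraries from 5 to 2, and the leading Hoxb region kept 3 libraries together. With the first 50% of each list there were 41 peaks, 27 regions, 4 regions of both Six2 libraries, 3 of both β-catenin libraries and 7 of both antibodies, and the median list position was 20.7%, since fewer peaks enter. Leaving out 1 library at a time gave 36 to 56 peaks, 24 to 41 regions, 6 to 10 regions of both antibodies and median positions of 36.5 to 44.0%. Windows narrowed or widened by 50 kb at each end gave 61 and 73 peaks and 10 and 11 regions of both antibodies. Counting peaks with midpoints within 500 bp as shared gave 7 regions of both β-catenin libraries and 3 regions with several libraries in the Hoxa window. Joining gaps of up to 100 bp, chosen after seeing the data like all settings for list position, gave the same numbers, 7 and 3. No paired analysis was possible because the labels give no replicate numbers and no result comes from a test across libraries.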

Other observations

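Beyond the upper limit of the Hoxb window, on the Skap1 side, the next 300 kb held 8 regions, and 3 of them had peaks of 2 libraries. Six2 alone marked 2 of these, at chr11:96542712-96542981 (ranks 906 and 746 in replicates 1 and 2) and chr11:96565008-96565401 (ranks 692 and 241). β-catenin alone marked the other, at chr11:96592263-96592548 (ranks 364 and 601). The antibodies met at none of the 3, whereas they met at all 6 regions with several libraries inside the window. Each antibody had 2 libraries, so a region of 3 or 4 libraries holds both antibodies of necessity. All 6 regions inside the window had 3 or 4 libraries, so their count was fixed, while the 3 outside had 2 each. Over the whole series, 766 of the 2047 regions with several libraries held both antibodies. Of these 2047, 371 had 3 libraries and 126 had 4. The contrast restates in part the number of libraries per region. It was noticed after the values were seen and was not tested. In the 300 kb below the Hoxb window there was 1 region, of a single library. The 300 kb above the Hoxc and Hoxd windows had 1 region with both antibodies each, at chr15:103135693-103135918 (Six2 replicate 1 rank 3177, β-catenin replicate 2 rank 928) and chr2:74936927-74937046 (Six2 replicate 1 rank 1667, β-catenin replicate 1 rank 1376). Next to the Hoxa window no region had peaks of several libraries on either side.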
